A study of Mus musculus with 3 samples.

Results

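The cornified layer genes are the genes whose transcripts are made as keratinocytes move up from the basal layer and turn into the dead, protein-rich squames of the skin surface. They were taken by symbol: every gene named Lce followed by a digit, and 20 named genes, giving 41 of the 32285 genes counted. Of these, 21 were Lce genes (14 Lce1 genes, 6 Lce3 genes and *Lce6a*). For the comparison of early with late differentiation, 6 members were counted as early genes (*Krt1*, *Krt10*, *Krt77*, *Krtdap*, *Sbsn* and *Dmkn*), 30 as late genes (the Lce genes with *Flg*, *Flg2*, *Lor*, *Hrnr*, *Casp14*, *Asprv1*, *Cdsn*, *Klk7* and *Tgm3*), and 5 as neither (*Krt2*, *Ivl*, *Tgm1*, *Cnfn* and *Calm4*). The values come from Visium sections of wounded skin of C57BL/6J mice taken 3, 7 and 14 days after injury, called Day 3, Day 7 and Day 14. By the study's methods the mice were adult males, and full-thickness wounds were punched in the shaved back and cut out with a wider punch, so that intact skin lies beside the wound. There was 1 section per day and no unwounded section, so no test between days is possible and the day cannot be told apart from the animal, the cut and the depth of the section.

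Keratinocytes of the basal layer carry *Krt5* and *Krt14*. On leaving it they switch to *Krt1* and *Krt10* and secrete small proteins such as dermokine, and in the granular layer they store loricrin and profilaggrin, which transglutaminases and proteases later join or cut into the cornified envelope and the moisture-holding breakdown products of filaggrin. Late cornified envelope (Lce) proteins are added to the envelope last. Most of their genes lie in the epidermal differentiation complex, where 26 of the members sat on chromosome 3 between 92080271 and 93333570 (GRCm38), from *Lor* to *Hrnr*.

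A Visium spot captures the 3′ ends of transcripts from a small region that can hold several cells, and each molecule is counted once by its unique molecular identifier (UMI). Fewer cells of a type and less RNA per cell therefore cannot be told apart. The spots marked as tissue are a selected region of interest. They numbered 664, 549 and 697 in order of day, and held 1772259, 4442962 and 4611723 UMIs. Levels below are UMIs per 1000000 UMIs of the marked spots (CPM), with exact Poisson 95% intervals, and ratios have exact conditional 95% intervals. All these intervals cover counting error only. A gene was called between 2 days where its CPM differed by at least 2-fold, its interval excluded equality and it had at least 50 UMIs over both sections. Genes are captured with unequal efficiency, so levels are compared between days and places for a gene or list, not between genes.

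Summed over the 41 members, the level went from 7052 CPM (6929 to 7177) at Day 3 to 4391 CPM (4330 to 4453) at Day 7 and 12866 CPM (12763 to 12970) at Day 14. Day 7 was lowest and Day 14 highest. The log2 ratio was -0.68 (-0.72 to -0.65) over the first step and 1.55 (1.53 to 1.57) over the second. The basal keratinocyte list of 9 genes moved the same way, from 5327 to 3164 to 6479 CPM. Set against the UMIs of *Krt5* and *Krt14* in place of all genes, the members were 0.20 (0.14 to 0.25) higher on the log2 scale on Day 7 than on Day 3. As a mean over single spots they were 0.35 higher. The direction of that first step thus rests on these 2 choices. It stayed a fall with muscle genes left out of the total (-0.67) and over all spots of the slide (-0.74). Of the 2 keratins, *Krt14* was lower on Day 7 than on Day 3 (log2 -1.44) and *Krt5* was level (-0.002). The second step was a rise per UMI of the 2 keratins and as a mean over single spots, of 0.49 and 1.04.

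Between Day 3 and Day 7, 9 of the 35 members tested were lower and 3 were higher, against 6.49% lower and 7.95% higher among the 10541 genes tested. Between Day 7 and Day 14, 32 of 37 members rose and 3 fell, against 10.9% and 7.34% of 11746 genes. Day 14 over Day 3 gave 21 higher and 0 lower of 34, against 14.2% and 6.83% of 10955 genes. The median log2 ratio of the tested members was -0.12, 1.41 and 1.14 in these 3 comparisons, and that of all genes tested 0.040, 0.13 and 0.18. The members left out had under 50 UMIs over the sections compared. For Day 14 over Day 3 they included all 6 Lce3 genes, so the 0 lower does not cover them. Their sum went from 67 UMIs on Day 3 to 11 on Day 14, a log2 CPM ratio of -3.99 (-5.06 to -3.06). All 3 that fell from Day 7 to Day 14 were Lce3 genes, and the other 2 that did not pass were *Casp14* and *Lce1k*.

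**Figure D1:**
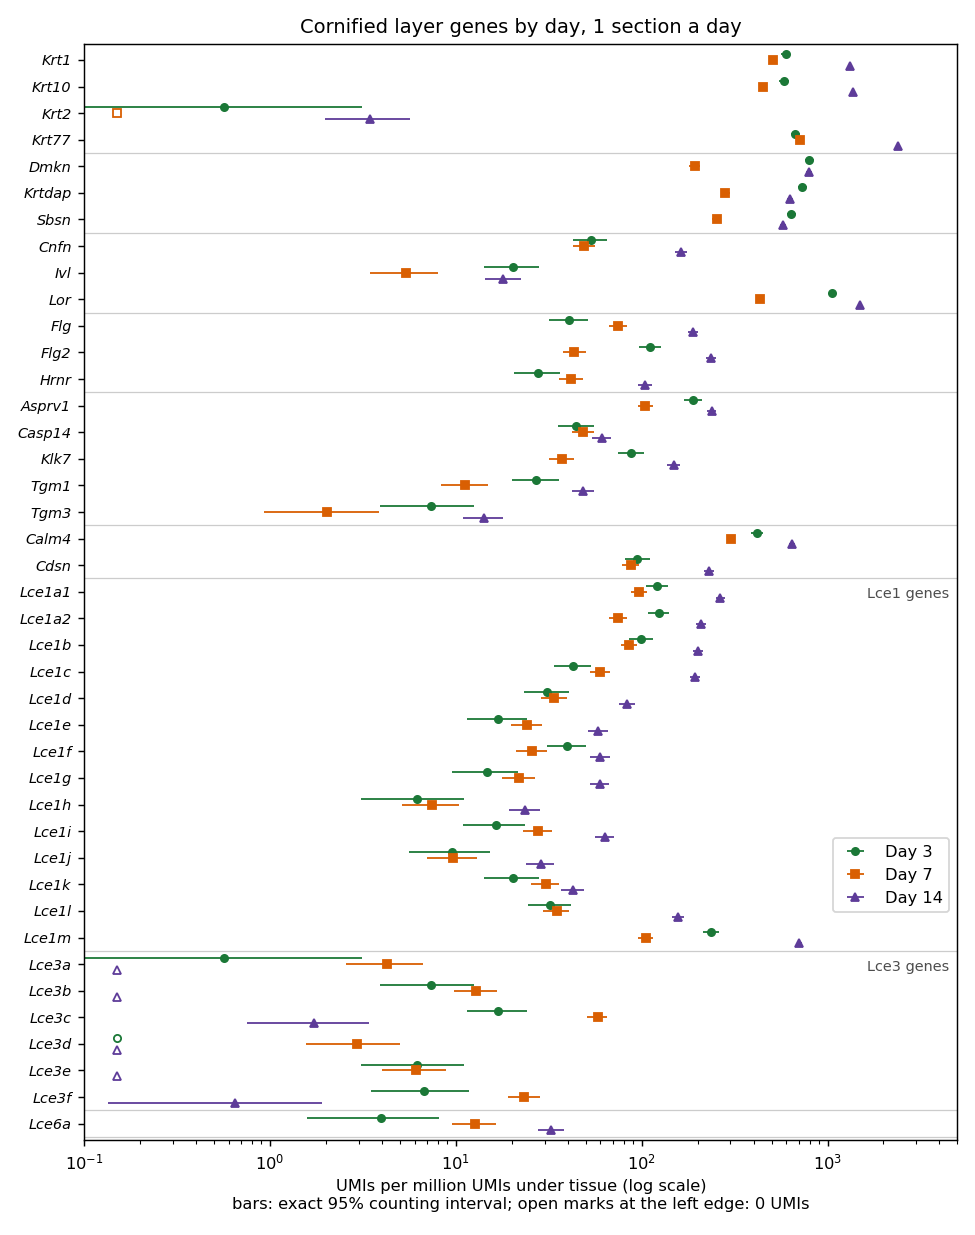
CPM of each of the 41 members (horizontal log axis) on Day 3, Day 7 and Day 14, grouped by role, with exact 95% counting intervals and open marks for sections with 0 UMIs. Most members have their rightmost mark on Day 14, as *Krt77* at 2402 CPM, while the 6 Lce3 genes have none above 2 CPM on Day 14.

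The 3 well counted suprabasal keratins were not called over the first step and rose over the second. *Krt77*, a type II keratin of the suprabasal layers on chromosome 15, had 671 CPM on Day 3, 708 on Day 7 and 2402 on Day 14, and was the member with most UMIs on the last 2 days. *Krt10*, the type I partner of *Krt1*, had 583, 447 and 1378 CPM, and *Krt1* had 594, 509 and 1315 CPM. Day 14 stood above both other days for each of the 3, with log2 ratios over Day 7 of 1.76 (1.71 to 1.82) for *Krt77*, 1.62 for *Krt10* and 1.37 for *Krt1*. *Krt2*, the keratin of the uppermost living layers in tail and ear skin, was almost absent, with 1, 0 and 16 UMIs.

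The 3 secreted proteins of early differentiation followed a different course. *Dmkn* (dermokine) had 800 CPM on Day 3, 193 on Day 7 and 794 on Day 14, *Krtdap* (keratinocyte differentiation-associated protein) had 732, 282 and 625 CPM, and *Sbsn* (suprabasin) had 638, 253 and 577 CPM. Each was low on Day 7 alone, falling by 2.05, 1.38 and 1.34 on the log2 scale from Day 3 and returning by Day 14 to log2 ratios over Day 3 of -0.01, -0.23 and -0.14. Their sum fell 2.98-fold from Day 3 to Day 7, while the keratin sum fell 1.11-fold, and on Day 14 over Day 3 the keratins were 2.76-fold higher and the secreted proteins 0.920-fold. The 6 early genes thus held 2 courses in these sections. The last 400 bases of the *Sbsn* transcript share 61.1% of their 90-base windows with the overlapping gene *Tmem147os*, so reads could be split between them, and its level is uncertain.

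*Lor* (loricrin), the main protein of the mouse cornified envelope, had 1061 CPM (Day 3), 435 CPM (Day 7) and 1491 CPM (Day 14). It fell by 1.29 (interval -1.38 to -1.19) on the log2 scale and then rose by 1.78. *Ivl* (involucrin), an early envelope scaffold, was sparse at 36, 24 and 83 UMIs and also lowest on Day 7, at 5.40 CPM against 20.3 and 18.0 CPM. *Cnfn* (cornifelin) stayed at 53.0 and 48.8 CPM and then reached 163 CPM.

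The filaggrin family did not move as 1 group over the first step. *Flg* (filaggrin) rose in each step, from 40.6 to 74.7 to 189 CPM, and *Hrnr* (hornerin) likewise, from 27.6 to 41.6 to 104 CPM, though neither reached 2-fold between Day 3 and Day 7. *Flg2* (filaggrin 2) fell from 111 to 43.4 CPM and then rose to 235 CPM, a log2 change of -1.36 (-1.65 to -1.06) followed by 2.44. All 3 were called higher on Day 14 than on Day 3.

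Among the enzymes, *Tgm1*, the membrane transglutaminase that joins envelope proteins, had 27.1, 11.3 and 48.6 CPM, and *Klk7*, a protease that cuts the junctions between squames, had 87.5, 37.1 and 148 CPM. *Asprv1*, the protease that trims profilaggrin, had 190, 104 and 238 CPM. These 3 were lowest on Day 7, and the Day 7 call held for *Tgm1* and *Klk7*. *Casp14*, which degrades filaggrin, was called in no comparison, at 44.6, 48.4 and 60.9 CPM, with overlapping intervals on Day 3 and Day 7. *Tgm3*, of the envelope and of the hair follicle, was sparse at 13, 9 and 65 UMIs. Of the junction and calcium-binding members, *Cdsn* (corneodesmosin) had 94.8, 87.1 and 231 CPM and *Calm4*, a calmodulin-like protein of the epidermis, 418, 303 and 643 CPM.

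The 14 Lce1 genes summed to 809 CPM (768 to 852) on Day 3, 637 CPM (614 to 661) on Day 7 and 2150 CPM (2108 to 2193) on Day 14. *Lce1m* was the most counted of them, with 235, 105 and 706 CPM, and was the only Lce1 gene called lower on Day 7, at a log2 ratio of -1.16 (-1.36 to -0.97). Of the other 12 tested over that step none was called, and their log2 ratios ran on both sides of 0, from -0.73 for *Lce1a2* to 0.76 for *Lce1i*. From Day 7 to Day 14, 13 of 14 were called higher, *Lce1m* most (log2 2.75) and *Lce1l* next (2.17), while *Lce1k* changed by 0.48. *Lce6a*, a relative in the same locus, rose in both steps, from 7 to 56 to 150 UMIs.

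The Lce3 genes went the other way. *Lce3c* had 30, 257 and 8 UMIs in order of day, or 16.9, 57.8 and 1.73 CPM. *Lce3f* had 12, 104 and 3 UMIs, or 6.77, 23.4 and 0.651 CPM, and *Lce3b* had 13, 57 and 0 UMIs. The other 3 Lce3 genes had at most 27 UMIs in any section and 0 on Day 14. Day 7 was thus the highest day for *Lce3c*, *Lce3f* and *Lce3b*, where 32 other members rose from Day 7 to Day 14. For *Lce3b* the interval of Day 7 over Day 3 (log2 -0.08 to 1.80) held 0. *Lce3c* rose by 1.77 (1.22 to 2.37) and *Lce3f* by 1.79 (0.92 to 2.79) on the log2 scale from Day 3 to Day 7, and their changes to Day 14 were -5.06 and -5.17. Against a floor of 3 UMIs in the Day 14 section, *Lce3b* was at least 19.7-fold lower than on Day 7. The 6 genes together were 45.01-fold lower on Day 14 than on Day 7, while the Lce1 genes were 3.38-fold higher.

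Near-identical stretches limit the reading of single Lce genes. Of the 90-base windows in the last 400 transcript bases, 36.7% of those of *Lce3c* and 18.3% of those of *Lce3f* occur in another Lce3 gene, and up to 16.1% of those of an Lce1 gene (*Lce1e*) occur in another Lce1 gene. No window was shared between an Lce1 and an Lce3 gene. *Lce1m*, *Lce1l*, *Lce1h* and *Lce1a2* share no window with any other gene.

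The sequences just before the starts of the most counted Lce1 and Lce3 genes are shown because these neighbours in 1 locus moved in opposite directions. They are the 250 bases before the RefSeq start, 5′ to 3′ on the gene's strand (GRCm38.p6): *Lce1m* at chr3:93019062-93019311 (minus), *Lce1a1* at chr3:92648308-92648557 (minus), *Lce3c* at chr3:92944236-92944485 (plus) and *Lce3f* at chr3:92991967-92992216 (plus). Capitals mark TATAAA in *Lce1m* and, in *Lce3c* and *Lce3f*, the longest run that both hold.
Lce1m: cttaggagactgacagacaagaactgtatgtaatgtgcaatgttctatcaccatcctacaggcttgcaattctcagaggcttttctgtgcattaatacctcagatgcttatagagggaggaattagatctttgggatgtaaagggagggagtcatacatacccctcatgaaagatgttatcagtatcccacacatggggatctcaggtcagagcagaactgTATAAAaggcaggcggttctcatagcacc
Lce1a1: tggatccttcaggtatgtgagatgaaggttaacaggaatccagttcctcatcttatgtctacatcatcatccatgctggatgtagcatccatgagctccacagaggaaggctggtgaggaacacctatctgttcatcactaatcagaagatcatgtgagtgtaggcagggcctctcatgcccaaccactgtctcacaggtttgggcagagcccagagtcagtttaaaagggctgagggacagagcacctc
Lce3c: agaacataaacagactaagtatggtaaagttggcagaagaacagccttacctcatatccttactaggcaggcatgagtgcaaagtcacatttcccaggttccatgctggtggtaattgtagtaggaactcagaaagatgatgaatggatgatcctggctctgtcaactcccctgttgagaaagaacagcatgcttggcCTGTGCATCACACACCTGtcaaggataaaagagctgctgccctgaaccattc
Lce3f: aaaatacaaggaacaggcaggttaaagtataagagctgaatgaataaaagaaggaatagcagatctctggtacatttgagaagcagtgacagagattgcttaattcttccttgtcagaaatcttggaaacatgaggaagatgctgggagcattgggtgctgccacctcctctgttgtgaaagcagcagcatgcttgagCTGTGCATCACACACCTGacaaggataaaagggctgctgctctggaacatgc

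The run shared by *Lce3c* and *Lce3f* is 18 bases long, begins 52 bases before the start in both, and occurs in the promoters of *Lce3c*, *Lce3e* and *Lce3f* and in no other of the 32851 searched on that strand. Without gaps, 43.2% of the positions of *Lce3c* and *Lce3f* were identical, against 25.6% to 34.8% for the other pairs shown, and 66 of the last 100 against at most 40. Of the 39 members with a promoter sequence (*Krt1* and *Lce1f* had none), 9 held TATAAA on the gene's strand, 23.1% against 7.59% of all promoters. Among them were 2 of 13 Lce1 genes and 0 of 6 Lce3 genes. TGANTCA, the AP-1 motif, was in 17.9% of the members against 6.75% of all promoters, and in 0 of the Lce1 and Lce3 genes. CACCC, a core of *Klf4* sites, was in 53.8% against 52% of all. These are matches of letters in a 250-base window and do not show that a factor binds.

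**Figure D2:**
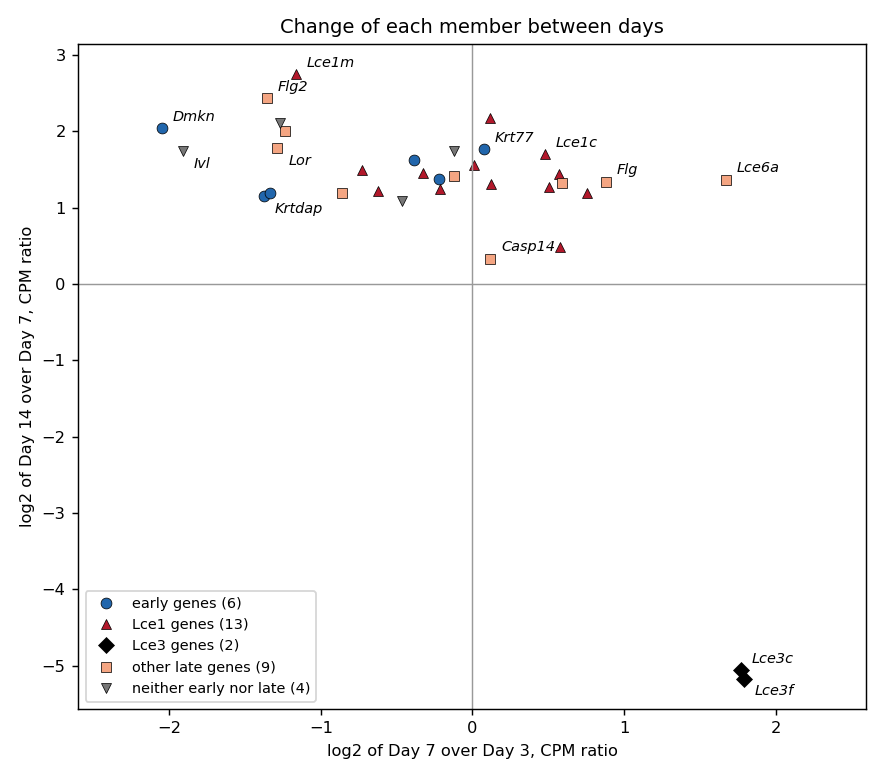
Log2 CPM ratio of Day 7 over Day 3 (horizontal) and of Day 14 over Day 7 (vertical) for the 34 members tested in both with UMIs in every section, by list. *Lce3c* and *Lce3f* lie alone at the lower right (1.77 and -5.06 for *Lce3c*), all others lie above 0 on the vertical axis, and *Dmkn* lies farthest left at -2.05.

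Whether late genes lag behind early ones was asked by the ratio of their summed UMIs. There were 0.626 late UMIs per early UMI (0.603 to 0.650) on Day 3, 0.682 (0.662 to 0.703) on Day 7 and 0.691 (0.679 to 0.703) on Day 14. The ratio was 1.09-fold (1.04 to 1.14) higher on Day 7 than on Day 3, and the interval for Day 14 over Day 7 (0.979 to 1.05) held equality. This small rise depends on the spots and genes summed. Without the segment that holds the wound bed, Day 7 stood at a log2 value of 0.066 against Day 3, with an interval (-0.008 to 0.139) that held 0. Without the Lce genes the late genes fell against the early ones from Day 3 to Day 7 (log2 -0.18, -0.26 to -0.10), and with the most counted gene left out of each list (*Lor* among the late genes) the rise was 0.71.

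The members were concentrated towards the skin surface on all 3 days, though on Day 7 most of their UMIs in marked spots lay deeper. The first 2 rows of marked spots held 68.3% (67.4 to 69.1) of the members' UMIs on Day 3, 33.4% (32.7 to 34.1) on Day 7 and 51.4% (51.0 to 51.9) on Day 14, against 26.1%, 12.02% and 15.9% of all UMIs. In the first row the summed level was 28431, 22074 and 57216 CPM, and at 12 or more rows below it 662, 2982 and 4435 CPM. On Day 3 the level went on falling down to the deepest rows, while on Day 7 it lay between 2929.7 and 3508 CPM from the fifth row down.

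Depth differed between rows, so shares of spots were compared at 1 depth. With each spot of at least 1000 UMIs thinned to 1000, *Lor* was found in 68.5%, 61.3% and 90.2% of surface band spots on the 3 days. At 12 or more rows below the first it was found in 10.96%, 19.7% and 32.6%. Spots with fewer UMIs were left out, which kept 73 of 102, 62 of 72 and 82 of 87 band spots. In the spots richest in skeletal muscle genes, which should not make loricrin, *Lor* was found in 3.13%, 6.38% and 15.4%. On Day 3 only 32 of the 67 muscle-rich spots were kept. The muscle shares lay below those of the deep rows on every day, with overlapping intervals. Median depths of all spots before thinning were 2494, 7050 and 7099 UMIs in the band and 798, 2239 and 2699.5 UMIs in the muscle-rich spots. Over all band spots before thinning, the surface shares of *Lor* were 66.7%, 91.7% and 96.6%. Overlap does not show that the deep shares equal those of the muscle-rich spots. Whether the deep rows express *Lor* was not tested, and the deep shares are not read as expression there.

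**Figure D3:**
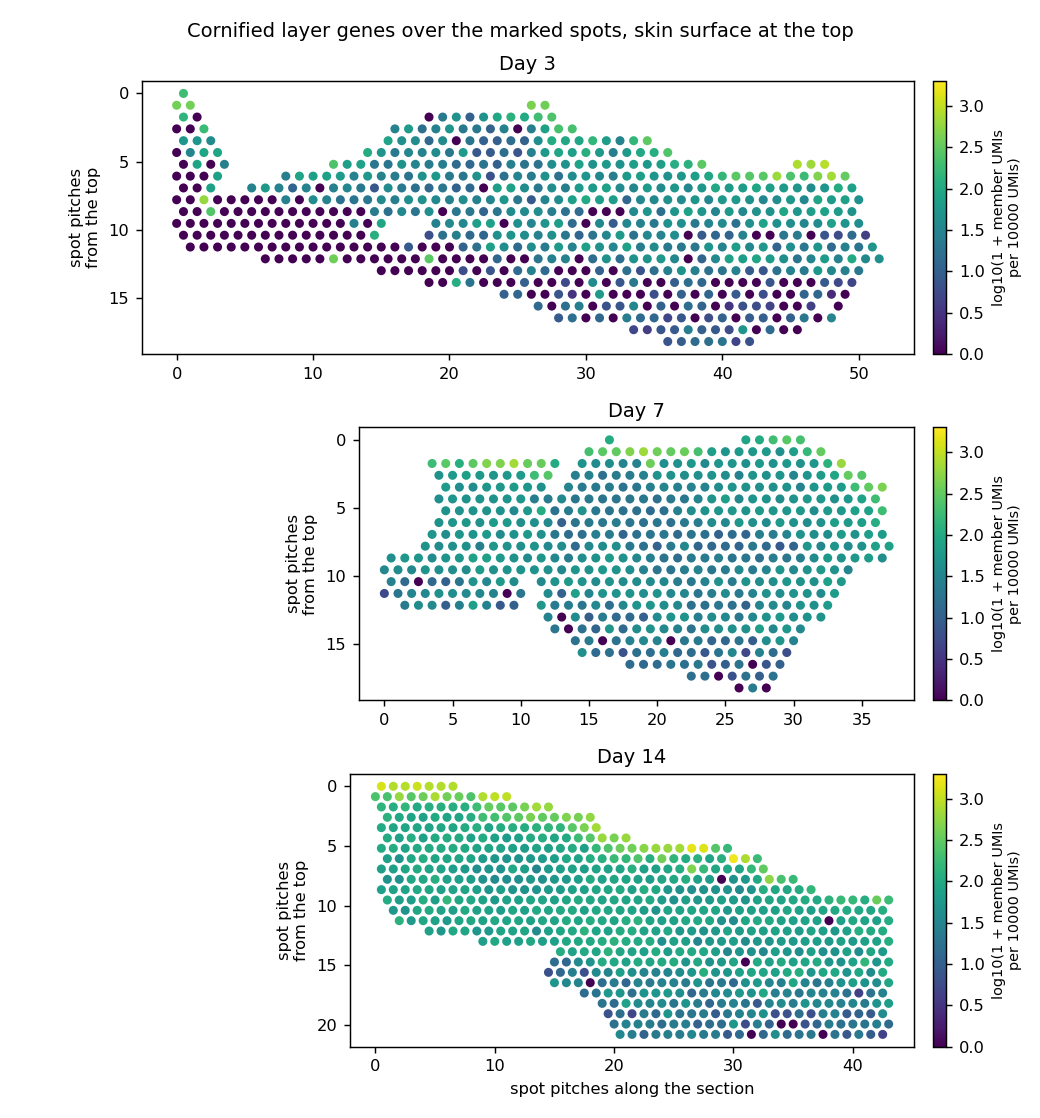
Marked spots of the Day 3, Day 7 and Day 14 sections with the skin surface at the top, axes in spot pitches, coloured by log10 of 1 plus the members' UMIs per 10000 UMIs of the spot. The brightest spots follow the upper edge on each day, whose first 2 rows held 68.3%, 33.4% and 51.4% of the members' UMIs.

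The upper edge of the marked region is not the upper edge of the signal. The row of unmarked spots just above it held 4325, 3940 and 7092 member UMIs at 40355, 15251 and 43727 CPM, above the first marked row on Day 3 and below it on the other days. Over each whole slide 53.7%, 61.5% and 41.0% of the members' UMIs lay in unmarked spots, at 8526, 4829 and 8744 CPM there. With that row added to the marked spots, the summed members changed by -0.84 over the first step and 1.48 over the second on the log2 scale.

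**Figure D4:**
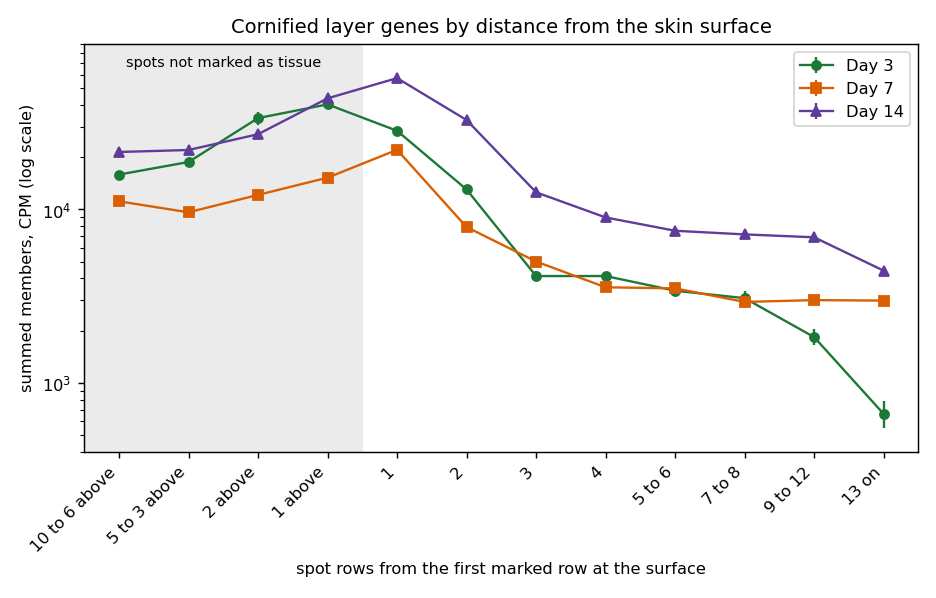
Summed CPM of the members (log axis) by row of spots counted from the first marked row at the surface, for each day, with 95% counting intervals and unmarked rows shaded. The level peaks in the first marked row on Day 7 (22074 CPM) and Day 14 (57216 CPM) and in the row above it on Day 3 (40355 CPM).

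Within the members the place differed by gene. On Day 14 the members with at least 50 UMIs had between 37.9% (*Klk7*) and 69.5% (*Flg*) of their UMIs in the first 2 rows, except *Cnfn*, *Tgm1* and *Tgm3*. *Cnfn* had 15.4% there, after 75.5% on Day 3, *Tgm1* had 21.4%, after 60.4%, and *Tgm3* had 24.6% of its 65 UMIs. The inner root sheath list, 7 genes of the growing hair follicle, went from 2.82 and 2.93 CPM on the first 2 days to 4825 CPM. The 70 spots richest in it held 17.7% of all UMIs and 9.93% (9.69 to 10.2) of the members' UMIs, and 3 of those spots were in the surface band. They held 44.3% (40.7 to 47.9) of *Cnfn*, 20.1% (17.8 to 22.7) of *Cdsn* and 22.3% of *Tgm1*, whose interval (17.0 to 28.3) held the share of all UMIs. The share of follicle RNA in the Day 14 rise of *Cnfn*, *Tgm1* and *Cdsn* was not tested.

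Lce3 UMIs were less tied to the surface than Lce1 UMIs on Day 7. The first 2 rows held 21.8% (18.2 to 25.8) of the 477 Lce3 UMIs and 39.9% (38.1 to 41.7) of the Lce1 UMIs, and 68.1% of the slide's Lce3 UMIs lay in unmarked spots against 60.8% for Lce1. On Day 3 most of the surface Lce3 UMIs, 32 of 43, lay in 1 of 5 equal segments along the surface, the middle one. That segment also had the highest level of the wound-activated keratinocyte list (*Krt6a*, *Krt6b*, *Krt16*, *Krt17*, *Sprr1a*, *Sprr1b* and *Stfa1*), at 11211 CPM against 938 to 4468 CPM in the others. On Day 7 the middle segment had the highest levels of both, 372 CPM of Lce3 against 103 to 243 CPM and 2722 CPM of the list against 759 to 815 CPM. Its Lce3 level rested on 22 UMIs (233 to 563 CPM). That interval overlapped the one of the segment at 243 CPM (157 to 358 CPM), which held 25 UMIs, and another segment held 27. Over the marked spots of each day the list had 1987, 642 and 1457 CPM and was lowest on Day 7, when Lce3 was highest. Its genes were split over the second step, with 2 of 7 called higher on Day 14 (*Krt17* and *Sprr1a*) and 4 lower. The lower ones were *Krt6b*, *Krt16*, *Sprr1b* and *Stfa1*, so the summed rise does not hold for the list as a whole.

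The wound bed was placed by 10 genes of early matrix and repair, among them *Tnc*, *Postn* and *Spp1*, as the segment with the highest mean ratio to its section, a ratio of 2.21, 1.17 and 1.58 in order of day. In its surface band the summed members were lower than in the other segments on Day 3 (log2 -1.49, -1.86 to -1.14) and Day 14 (-0.53, -0.61 to -0.45), and within counting error on Day 7 (-0.07, -0.18 to 0.05). The Day 7 value rests on how the surface was divided, at -0.95 with 4 segments, -1.32 with 6 and -0.86 over all rows, with intervals below 0. The Day 3 value ran from -2.58 with 4 segments to -0.40 over all rows. The pooled contrasts also rest on the richest segments. On Day 3 another segment lay lower than the wound bed, at 4380.5 CPM, and on Day 14 another lay at 13392 CPM against 29407 CPM. On Day 7 the wound bed had 11714 CPM, above 3 of the other segments (6559, 7421 and 7951 CPM) and below the richest (21824 CPM). On Day 3 the wound bed segment held only 67 member UMIs in 10071, at 6653 CPM against 18684 elsewhere, with neutrophil genes at 11518 CPM against 2298. The segments pooled as elsewhere included the one at 4380.5 CPM, whose wound bed ratio was 1.71 and whose neutrophil genes stood at 10236.5 CPM. They also included the middle segment, at a ratio of 1.66, while the others had 0.597 and 0.423. The Day 3 contrast is therefore not a contrast of wound with intact skin. On that day 7 of 18 members tested were lower and 0 higher, where 3.85% and 3.17% of 1611 genes were.

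On Day 14 the late genes outnumbered the early ones over the wound bed, and on Day 7 the same contrast depended on how the surface was divided. The surface band had 1.90 late UMIs per early UMI (1.60 to 2.27) there on Day 7 against 0.737 in the other segments, and 3.10 (2.71 to 3.55) against 0.652 on Day 14. On the log2 scale the Day 7 difference was 1.37 (1.10 to 1.63), and with 6 segments it was 0.23, with an interval (-0.06 to 0.51) that held 0. On Day 3 the values were 0.415 and 0.648, with an interval for their log2 difference (-1.56 to 0.21) that held 0. The other segments of Day 7 included 2 with wound bed ratios of 1.04 and 1.01, close to the 1.17 of the wound bed. They had 1.42 (1.21 to 1.68) and 0.717 late UMIs per early UMI. The Day 7 difference is therefore not one of wound against intact skin. On Day 14 the early genes summed to 6084 CPM over the wound bed against 23947 elsewhere, and the late genes to 18866 against 15620. The basal keratinocyte list had 5704 against 13599 CPM. All 6 early genes were lower there on that day, from *Dmkn* (log2 -1.43) to *Krtdap* (-2.47), with *Krt10* at 1225 CPM against 5406. Of 31 members tested on Day 14, 8 were called higher and 6 lower, where 4.04% of 2774 genes were higher and 4.58% lower. The 8 were all late, *Flg* (2176 against 732 CPM) and 7 of the 14 Lce1 genes. Among these 7 were *Lce1g* (697 against 134 CPM) and *Lce1f* (613 against 157 CPM). *Lce1m* went against them (1246 against 2333 CPM), and *Lor* was lower too (3380 against 5065 CPM). On Day 7 5 of 24 members were higher and 2 lower, against 2.43% and 2.04% of 1812 genes. The higher ones were *Flg*, *Cnfn*, *Casp14*, *Asprv1* and *Lce3c*, and the lower ones *Krt77* (473 against 2391 CPM) and *Krtdap*.

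On Day 7 and Day 14 the segment with the fewest UMIs per surface spot had the highest ratio of late to early UMIs. On Day 3 it had the lowest, at 0.415 against 0.648 elsewhere, with a median of 365 UMIs against 4429. The surface spots over the wound bed had a median of 1746 UMIs on Day 7 and 1860 on Day 14, against 7757 and 7918 elsewhere. In the other segments, spots with no more UMIs than those medians had 5.11 (3.10 to 8.84) late UMIs per early UMI on Day 7, in 8 spots, and 4.10 (2.52 to 6.95) on Day 14, in 3 spots, which is no lower than over the wound bed. Without the spot richest in late genes, which held 31.8% of the wound bed's late UMIs on Day 14, the ratio there was 2.21. On Day 14 late UMIs outnumbered early ones in 12 of 17 wound bed spots and 9 of 70 others, and on Day 7 in 9 of 15 and 13 of 57. The part of spot depth in the ratio was not tested, and over a whole segment, all rows taken, it was 0.791 against 0.657 on Day 7 and 1.04 against 0.663 on Day 14.

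**Figure D5:**
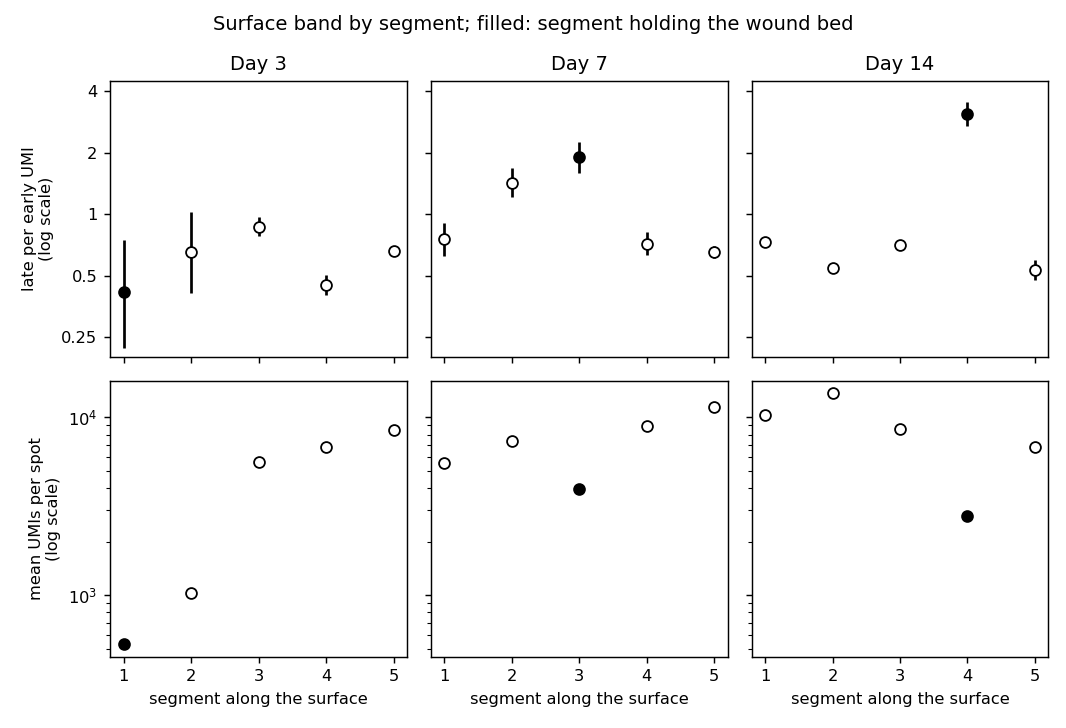
Late UMIs per early UMI with 95% counting intervals (top, log axis) and mean UMIs per spot (bottom, log axis) in the surface band of 5 segments along each section, with the segment holding the wound bed filled. The filled point is the highest on Day 7 (1.90) and Day 14 (3.10) and the lowest on Day 3 (0.415), and it has the fewest UMIs per spot on each day.

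Other genes of the same program moved much as the members did. Of the differentiation regulators, 6 of 17 tested fell from Day 3 to Day 7 and 0 rose, and 13 of 18 rose to Day 14 and 0 fell. *Zfp750*, a transcription factor needed for terminal differentiation, had 25.4, 4.73 and 77.8 CPM (log2 -2.43, then 4.04), and *Klf4*, a factor of barrier formation, 153, 54.2 and 151 CPM. Of the desmosome and tight junction genes 6 of 12 fell and 1 rose over the first step, and 11 of 13 rose and 1 fell over the second, as *Dsg1a*, a desmosomal cadherin, with 152, 42.1 and 157 CPM. Of the barrier lipid genes 3 of 11 fell and 0 rose, then 7 of 14 rose and 0 fell, *Elovl4* (which lengthens fatty acids for ceramides) having 1195, 332 and 1015 CPM. Of the proteases and inhibitors 4 of 10 fell and 0 rose, then 8 of 10 rose and 0 fell. The genome-wide shares are those given above for each comparison.

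The other envelope precursors split as the Lce genes did, with 1 of 8 higher and 1 lower over the first step, then 3 higher and 3 lower. Among the small proline-rich proteins, *Sprr1b* had 56.4, 49.7 and 2.602 CPM, *Sprr2d* 9.03, 18.7 and 0 CPM and *Sprr2h* 17.5, 15.5 and 0 CPM, so that their Day 14 fall matched that of *Lce3c*, *Lce3f* and *Lce3b* in direction. *Sprr1a* went the other way, falling from 163 to 77.2 CPM over the first step (log2 -1.07) and rising to 318 CPM on Day 14 (log2 2.04).

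Across marked spots the genes outside the list whose log levels most resembled the summed members were, by the mean Pearson r of the 3 sections among 5528 genes, *Lgals7* (0.576), *Krt14* (0.573), *Krt5* (0.558), *Fam25c* (0.520), *Perp* (0.510), *Crct1* (0.501), *Col1a1* (0.488), *Krt15* (0.475), *H2-K1* (0.471) and *2310050C09Rik* (0.462). Spots of 1 section share its library and its gradient of depth, and *Col1a1*, a dermal collagen, stands among keratinocyte genes, so these values describe shared place and no more.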

How the data were processed

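The authors converted the reads of the Visium libraries to raw UMI counts per gene and spot, and the deposited counts are not normalized. The submitters' processing notes name Space Ranger 1.3.0 and the genome mm10. Here the counts of the spots marked as tissue were summed per section and divided by the total (CPM). The day is the group, each day is 1 section, and no test was made. Intervals were checked on simulated counts. The skin surface was read from the study's section images, depth was counted in spot rows from the first marked spot of each column, and sections were cut into 5 equal segments along the surface. Every member given by name, the Lce genes that reach 50 UMIs in all, up to 4 called genes of each other list and the 10 most similar genes may be named. The members and lists were chosen with earlier results of these data known, and the comparison of late with early genes over the wound bed, the row above the surface and the shallow-spot comparison were added after the data were seen. Positions come from the GENCODE M21 annotation of GRCm38, and promoters from RefSeq (GRCm38.p6). TGANTCA and CACCC were searched on both strands of the 250 bases, and TATAAA on the gene's strand only. Alternatives were other denominators, TMM factors (edgeR 4.0.16), DESeq2 1.42.0 size factors, other spot sets, bands and segments, and other gene lists. Python 3.11.15, numpy 2.4.6, scipy 1.17.1, pandas 2.3.3, matplotlib 3.10.9 and R 4.3.3 were used.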

Additional observations from a re-analysis of the deposited data

Results flagged for a closer look

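The late genes had opposite signs over the wound bed on different days. Against the other segments of the surface band the summed late genes had log2 ratios of -2.02 (Day 3), 0.43 (Day 7) and 0.27 (Day 14). For the Lce1 genes it was -1.57, 0.089 and 0.61, and for the late genes without Lce -2.29, 0.63 and -0.061. These differences were not tested, since each day is 1 section, and the Day 3 wound bed band held 17 late UMIs.

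Spots that are not marked as tissue, outside those the comparisons rest on, held 14522, 31182 and 41231 member UMIs in order of day.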

How the results depend on the processing

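No paired analysis was possible because each day has 1 section. The fall of the summed members from Day 3 to Day 7 (log2 -0.68) turned to 0.35 as a mean of spot CPM and to 0.20 per UMI of *Krt5* and *Krt14*, and was -0.74 over all spots of the slide, -0.79 without the member with most UMIs and -0.84 with the first unmarked row. The rise from Day 7 to Day 14 (1.55) kept its direction in all 10 alternatives, at 1.04 as a mean of spot CPM, 0.49 per UMI of *Krt5* and *Krt14*, 1.45 with TMM, 1.43 with DESeq2 size factors, 1.21 over the slide, 1.51 without the member with most UMIs and 1.48 with the first unmarked row. The late over early ratio of Day 7 over Day 3 (0.12) turned to -0.18 without the Lce genes and -0.017 over the slide, and rose to 0.36 without *Krt10* and *Krt1*, 0.71 without the gene with most UMIs in each list, 0.98 as a median of gene ratios and 0.32 in the surface band, and at 0.066 without the wound-bed segment its interval held 0. For Day 14 over Day 7 (0.02) it was -0.13 as a median of gene ratios and -0.22 in the band, and Day 14 over Day 3 (0.14) turned to -0.11 without the Lce genes. The surface share was 36.9%, 18.3% and 25.4% on the 3 days for 1 row and 75.3%, 41.9% and 58.3% for 3 rows. Over the wound bed the members' log2 ratio with 4 segments was -2.58, -0.95 and -0.41, with 6 segments -1.32 on Day 7 and -0.98 on Day 14, and over all rows -0.40, -0.86 and -0.93. Late over early there was 0.27 (Day 7) and 0.65 (Day 14) over all rows, 0.74 (Day 7) with 4 segments, 0.23 (Day 7, interval holding 0) and 1.79 (Day 14) with 6, and 1.92 on Day 14 without the Lce genes. The causes were not tested. Counts were low for the Lce3 genes, *Krt2* and *Tgm3* and in the Day 3 wound bed, where intervals were wide.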
